A study of Homo sapiens with 6 samples.

Results

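Assembly factors of the large (60S) ribosomal subunit were followed by RNA sequencing in AGS, an established cell line from a human gastric adenocarcinoma. The set holds 40 genes out of 56303 gene entries in the count table. They were chosen by name, as proteins that build, process or export the pre-60S particle, with earlier results of these data known. All 40 were found under their own symbols, and all 40 passed the filter on low counts, so none is missing below. The study compared 3 libraries labelled siSRSF, with the genotype given as SRSF2 knockdown (called siSRSF2 here), with 3 libraries labelled WT. SRSF2 encodes a splicing factor, and the prefix si denotes a small interfering RNA. Both groups are the same line in the same DMEM/F12 medium with serum. The labels name no time point and no control siRNA for WT cells. They also do not say that replicates were separate cultures, and the p-values then cover only the spread among these libraries, which could be technical. The target itself fell in the libraries labelled as knockdown (SRSF2 log2 fold change -0.98, SE 0.064, edgeR adjusted p = 4.39e-13).

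Ribosome assembly starts in the nucleolus, where RNA polymerase I makes a long precursor rRNA and proteins bind it as it is transcribed. The large subunit is shaped by scaffold proteins, GTPases, methyltransferases, nucleases and AAA ATPases (motor proteins that pull factors off the particle), which leave in a set order before the particle is exported to the cytoplasm. These factors do not stay in the finished ribosome. Their genes are highly expressed in growing cells and in many tumours.

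Total counts were between 47518943 and 50021152 in WT libraries and between 26610937 and 36651623 in siSRSF2 libraries, so depth differed between the groups. Levels are given as CPM, counts scaled to a common library size, after TMM scaling, a correction for differences in library composition. Levels are relative to the rest of the library, so less RNA per cell for these genes and more for others cannot be told apart. Member counts ran from 230 to 57864 in a single library, far above a floor of 3 counts (at most 0.11 CPM). With every library thinned to the smallest total, 38 members were still lower and their median log2 fold change was -1.02. The epithelial keratin genes KRT8 (3236 CPM in WT) and KRT18 (1099 CPM) were abundant and EPCAM was low (5.00 CPM in WT). Of 9 epithelial markers 4 were higher and 1, KRT8, was lower in siSRSF2 cells. The leukocyte genes PTPRC and CD3E had at most 10 and 2 counts in any library. The summed level of 9 leukocyte markers was 24.6 to 26.6 CPM in WT and 33.6 to 37.8 CPM in siSRSF2 libraries, with 1 of 3 tested markers higher. That of 9 fibroblast and endothelial markers was 23.1 to 24.5 and 49.6 to 56.4 CPM, with 4 of 7 tested higher and 2 lower, and with KDR and VWF at 8 counts or fewer. The part of these markers in the results below was not tested.

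Nearly the whole assembly set was lower in siSRSF2 cells. Of 40 members, 38 fell, 1 rose and 1 did not pass the test (edgeR quasi-likelihood test, Benjamini-Hochberg adjusted p of 0.05 over all 23689 genes tested). Among all genes tested, 59.1% passed by the same rule, 29.0% as lower and 30.1% as higher. A fall of over 2-fold was seen in 21 members, against 5.91% of all genes, and one of over 1.5-fold in 31, against 15.3%. The median log2 fold change of the members was -1.04, and that of all genes 0.02. Members are abundant, so genes at or above the mean level of the least abundant member (14.3 CPM) were also counted. Of those 7866 genes, 53.0% were lower and 7.02% were lower by over 2-fold, with a median of -0.19. Of the 40 members, 19 lay within the lowest 5% of all log2 fold changes and 26 within the lowest 10%.

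The libraries behaved alike. The median member's log2 difference from its WT mean was -0.99, -1.04 and -1.07 in the siSRSF2 libraries and between -0.007 and 0.012 in the WT libraries. In 38 members every siSRSF2 library was below every WT library, where 31.2% of all genes showed such a gap downward. The members' summed level, leaving out WDR74 for the reason given below, was 9859 ± 74.0 CPM in WT and 5199 ± 165 CPM in siSRSF2 cells (SD, n = 3 per group). The plot of levels by library shows how even the falls were.

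**Figure D1:**
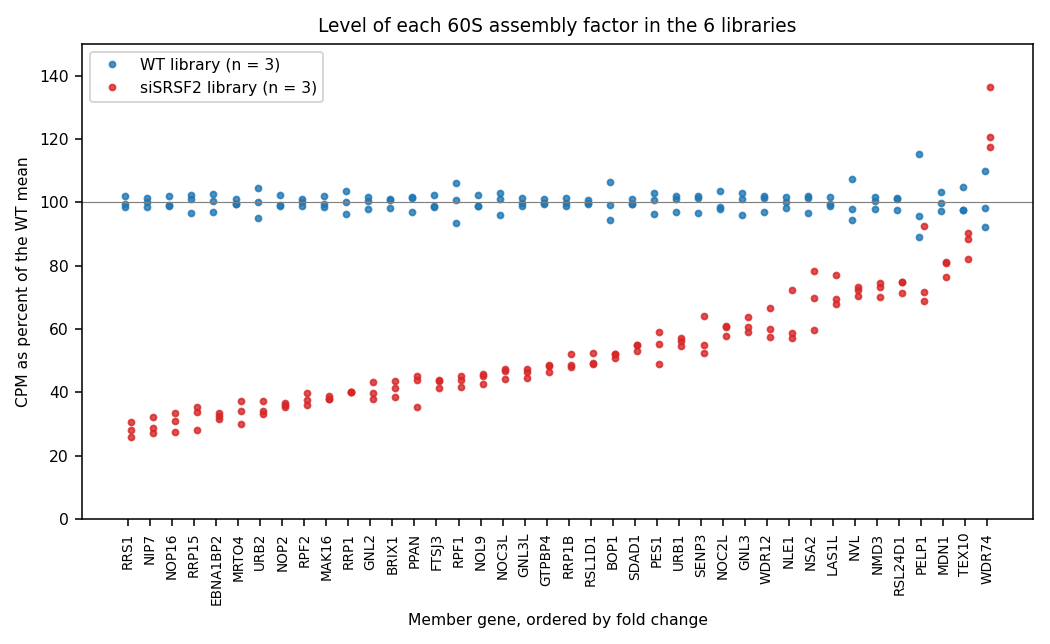
Level of each of the 40 members in each library, as CPM in percent of that gene's WT mean (vertical axis, linear from 0), with genes ordered by fold change on the horizontal axis. Each point is 1 library, blue for WT and red for siSRSF2, and the red points lie below the blue ones for every gene except PELP1, whose groups overlap, and WDR74, whose deposited count includes an snRNA.

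Levels ranged widely, and per length of exon they can be compared between genes. In WT cells, RPKM (CPM per kilobase of exon) ran from 3.21 for NLE1 to 197 for RSL1D1, with a median of 43.6. The Pearson correlation between log2 WT RPKM and log2 fold change across the 40 genes was -0.049 (Spearman -0.054) and the Pearson value was -0.175 without WDR74, given as a description because the genes share libraries.

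RRS1 and RPF2 act together to dock the 5S ribonucleoprotein, a separate rRNA with its own proteins, onto the early particle. RRS1 fell most of all members, but the log2 fold change of NIP7, the next, differed by only 0.068 (SE 0.080). This SE takes the genes as independent, although they share libraries. The RRS1 level was 119.9, 121 and 124 CPM in WT libraries and 34.0, 31.3 and 37.4 CPM in siSRSF2 libraries. The groups were far apart, with a 3.55-fold fall (log2 fold change -1.83, SE 0.057, edgeR adjusted p = 1.74e-19). RRS1 is a gene of a single exon on chromosome 8 (66429028 to 66430733, plus strand, GRCh38). RPF2 fell 2.64-fold, from 99.1 ± 1.16 to 37.5 ± 1.81 CPM. The ratio of RRS1 to RPF2 went from 1.23 in WT to 0.913 in siSRSF2 cells, a log2 difference of -0.43. RRS1 shares 194 exon bases with ADHFE1 on the same strand, where reads cannot be assigned to either gene alone, and ADHFE1 had a log2 fold change of -1.70.

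The proteins that form the early scaffold made up the largest group, 18 genes, of which 17 fell and 1 rose as deposited. Their median log2 fold change was -1.23, and 12 fell by over 2-fold. NIP7, a small RNA-binding protein needed for precursor rRNA processing, was at 116, 119 and 118 CPM in WT and at 32.1, 33.9 and 37.9 CPM in siSRSF2 libraries. It fell 3.39-fold (SE 0.056 on the log2 scale, edgeR adjusted p = 2.68e-19). NOP16 (3.27-fold lower), RRP15 (3.08-fold lower) and URB2 (2.87-fold lower) fell by similar amounts. EBNA1BP2, the human counterpart of yeast Ebp2, started from a higher level. It was at 399.7, 414 and 423 CPM in WT and at 138, 135 and 130.5 CPM in siSRSF2 libraries, a 3.07-fold fall with the groups far apart.

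MAK16, RPF1, RRP1 and WDR74 work as 1 module on the early particle. MAK16 fell 2.61-fold from 175 ± 3.21 to 67.1 ± 1.16 CPM, RRP1 fell 2.49-fold and RPF1 2.30-fold. In the RRP1 gene the siSRSF2 libraries were almost equal, at 62.0, 62.1 and 62.0 CPM, against 160.0, 149 and 154 CPM in WT. BRIX1 (2.43-fold lower) and PPAN (2.41-fold lower), of the family of Brix-domain proteins to which RPF1 and RPF2 also belong, fell by close amounts. RRP1B, a paralogue of RRP1, fell 2.02-fold. NOC3L fell 2.17-fold and its partner NOC2L 1.67-fold. RSL1D1, the most abundant member per length, dropped from 1211, 1206 and 1219.5 CPM in WT to 637, 595 and 599 CPM in siSRSF2 libraries. SDAD1 (1.84-fold lower) and URB1 (1.78-fold lower) fell less, and NSA2 least of this group (204 ± 6.25 to 141 ± 19.0 CPM, log2 fold change -0.53, edgeR adjusted p = 0.000262).

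WDR74 was the only member that rose as deposited, from 665 ± 59.7 to 829.7 ± 67.2 CPM. Its log2 fold change was 0.32 with an SE of 0.066 (edgeR adjusted p = 0.000788), and a test for changes beyond 1.2-fold did not call it (edgeR adjusted p = 0.146). An entry for a U2 small nuclear RNA, RNU2-2P, lies entirely within WDR74 exons on the same strand (191 bases, 4.5% of the WDR74 exon length). The table counted 26390, 27117 and 31786 reads for RNU2-2P in WT libraries where WDR74 had 29161, 29828 and 34620. In siSRSF2 libraries the counts were 23753, 29828 and 25904 for RNU2-2P and 24620, 30925 and 27038 for WDR74. Counts for the snRNA thus equalled 90.5% to 91.8% of the WDR74 count in WT and 95.8% to 96.5% in siSRSF2 cells. That overlapping genes each received the same reads is seen in PPAN, whose read-through entry PPAN-P2RY11 carried between 97.6% and 99.2% of the PPAN count in every library. Taking the RNU2-2P count away left 2771, 2711 and 2834 reads for WDR74 in WT and 867, 1097 and 1134 in siSRSF2 libraries. These correspond to 59.0 ± 0.833 and 31.0 ± 2.29 CPM (SD, n = 3 per group). Refitted in this way, WDR74 was lower (log2 fold change -0.93, edgeR adjusted p = 2.37e-13), and 39 members were lower and none higher. Another entry, RP11-727F15.9, shares 12.2% of the WDR74 exon length on the opposite strand. It had 1188, 1173 and 1300 counts in WT and 373, 430 and 409 in siSRSF2 libraries (log2 fold change -1.10). The part of RP11-727F15.9 reads in the remaining WDR74 count was not tested. RNU2-2P itself was higher in siSRSF2 cells (log2 fold change 0.40, SE 0.073, edgeR adjusted p = 0.000449).

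**Figure D2:**
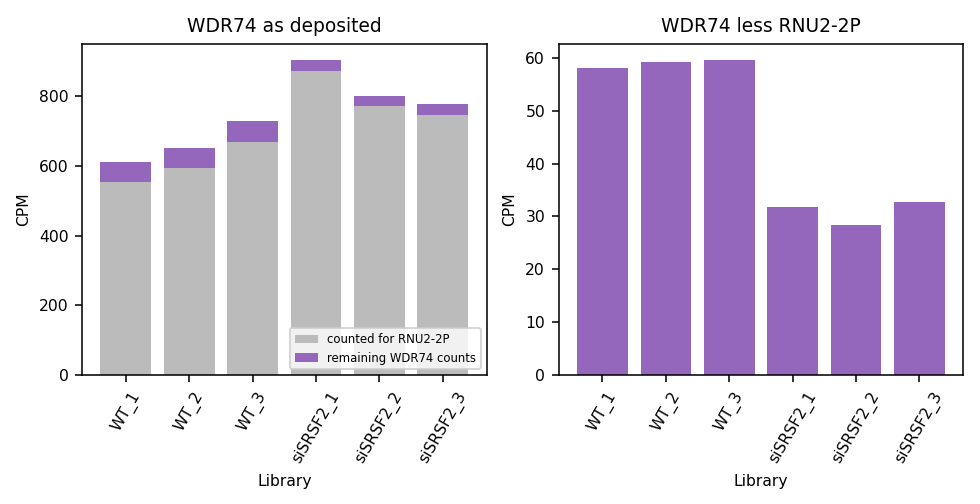
WDR74 level in CPM (vertical axes, from 0, on different scales) in each of the 6 libraries. Left, the deposited count split into the part equal to the RNU2-2P count (grey) and the remainder (purple), and right, the remainder alone, which was 59.0 CPM on average in WT and 31.0 CPM in siSRSF2 libraries.

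Both rRNA methyltransferases of the set fell. NOP2, which methylates a cytosine of the large rRNA, was at 376, 375 and 388 CPM in WT and at 137, 134 and 139 CPM in siSRSF2 libraries. The fall was 2.77-fold (SE 0.044 on the log2 scale, edgeR adjusted p = 7.99e-20). FTSJ3, which methylates ribose groups, fell 2.33-fold from 707 ± 14.5 to 304 ± 10.5 CPM. FTSJ3 shares 16.8% of its exon length with PSMC5 on the opposite strand, which was also lower (log2 fold change -0.83).

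All 4 nucleolar GTPases, switch proteins that time steps of assembly, were lower. GNL2 fell 2.47-fold from 501 ± 9.80 to 202 ± 13.7 CPM, and GTPBP4 fell 2.09-fold from 540.2 ± 4.31 to 259 ± 6.22 CPM. GNL3, which encodes nucleostemin, and its close relative GNL3L both went down. GNL3 was at 213, 209 and 199 CPM in WT and at 132, 126 and 122 CPM in siSRSF2 libraries, a 1.64-fold fall. GNL3L went from 153.1, 155 and 157 CPM to 72.0, 69.1 and 73.4 CPM, a 2.17-fold fall. The ratio of GNL3 to GNL3L was 1.34 in WT and 1.77 in siSRSF2 cells, a log2 difference of 0.41 between groups whose SDs were 0.069 and 0.078.

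Ratios of other related or partner genes were also compared. The log2 difference between groups was -0.69 for URB2 over URB1, -0.68 for NOL9 over LAS1L, -0.38 for NOC3L over NOC2L, -0.30 for RRP1 over RRP1B and -0.21 for RPF2 over RPF1. For each of the 7 pairs compared, the ratios of the groups did not overlap. The pairs were chosen with earlier results of these data known. How often unrelated gene pairs show such a gap was not tested. The exact permutation test, two-sided, gave p = 0.1 for each pair and 0.1 after adjustment over the 7, which is the smallest that 3 against 3 libraries allow.

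The genes of the PeBoW complex, made of PES1, BOP1 and WDR12 and needed for the maturation of the large rRNAs, fell by moderate amounts. BOP1 was 1.93-fold lower (145 ± 8.73 to 74.9 ± 0.965 CPM), PES1 1.84-fold (437 ± 14.4 to 238 ± 22.0 CPM) and WDR12 1.63-fold (87.5 ± 2.36 to 53.7 ± 4.13 CPM). None of the 3 fell by over 2-fold. The edgeR adjusted p-values were 5.15e-15, 4.21e-12 and 1.59e-11.

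Genes for removal of the second internal spacer (ITS2) and for the PELP1 complex ran from -1.17 to -0.20 in log2 fold change, with 4 of 5 lower. LAS1L cuts the spacer and NOL9 phosphorylates the new end. NOL9 fell 2.25-fold from 68.4 ± 1.34 to 30.5 ± 1.09 CPM, whereas LAS1L fell 1.40-fold from 327 ± 4.93 to 234 ± 16.04 CPM. SENP3, a protease that removes SUMO from PELP1, was 1.74-fold lower. SENP3 shares 41.2% of its exon length with the read-through entry SENP3-EIF4A1, so its own level is uncertain. TEX10, a subunit next to PELP1, fell by 0.20 on the log2 scale (35.1, 37.6 and 35.0 CPM in WT, 32.5, 29.5 and 31.7 CPM in siSRSF2, edgeR adjusted p = 0.00568). Scaling libraries by their totals alone ended this call (log2 fold change -0.07, edgeR adjusted p = 0.337), as did a test for changes beyond 1.2-fold (edgeR adjusted p = 0.753). PELP1 was the member that did not pass. Its levels were 241, 200.1 and 186 CPM in WT and 193, 149.6 and 144 CPM in siSRSF2 libraries (log2 fold change -0.37, SE 0.17, edgeR adjusted p = 0.131). The highest siSRSF2 library lay above the lowest WT library, and without that siSRSF2 replicate 1 PELP1 passed (log2 fold change -0.50, edgeR adjusted p = 0.0255). It also passed with limma voom (adjusted p = 0.00111) and with a non-robust edgeR fit (adjusted p = 0.00161).

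The energy-driven removal of factors depends on MDN1, a giant dynein-like ATPase, with NLE1 as the adaptor it grips, and on NVL, which releases WDR74. MDN1, at 1086, 1024 and 1049 CPM in WT, was at 855, 850.0 and 804 CPM in siSRSF2 libraries. The groups did not overlap, and the fall was small (1.26-fold, edgeR adjusted p = 2.75e-07). NVL fell 1.39-fold from 58.0 ± 3.87 to 41.8 ± 0.835 CPM and NLE1 1.59-fold from 17.5 ± 0.291 to 11.01 ± 1.46 CPM. No gene of this group fell by over 2-fold, and the group median was -0.47.

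Late factors divided. MRTO4, which holds the place of the stalk protein RPLP0, fell 2.95-fold, from 146, 148 and 146 CPM in WT to 50.2, 43.9 and 54.8 CPM in siSRSF2 libraries. RSL24D1, which holds the place of RPL24, fell 1.36-fold (252 ± 5.07 to 186 ± 5.26 CPM). NMD3, the adaptor that links the particle to the exportin XPO1, fell 1.38-fold (210.4 ± 4.07 to 152.95 ± 4.77 CPM). RPLP0 itself, named after its value was seen, was higher (log2 fold change 0.35, edgeR adjusted p = 0.019). RPL24, named in the same way, was lower, as was RSL24D1 (RPL24 log2 fold change -0.25, edgeR adjusted p = 3.61e-05).

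**Figure D3:**
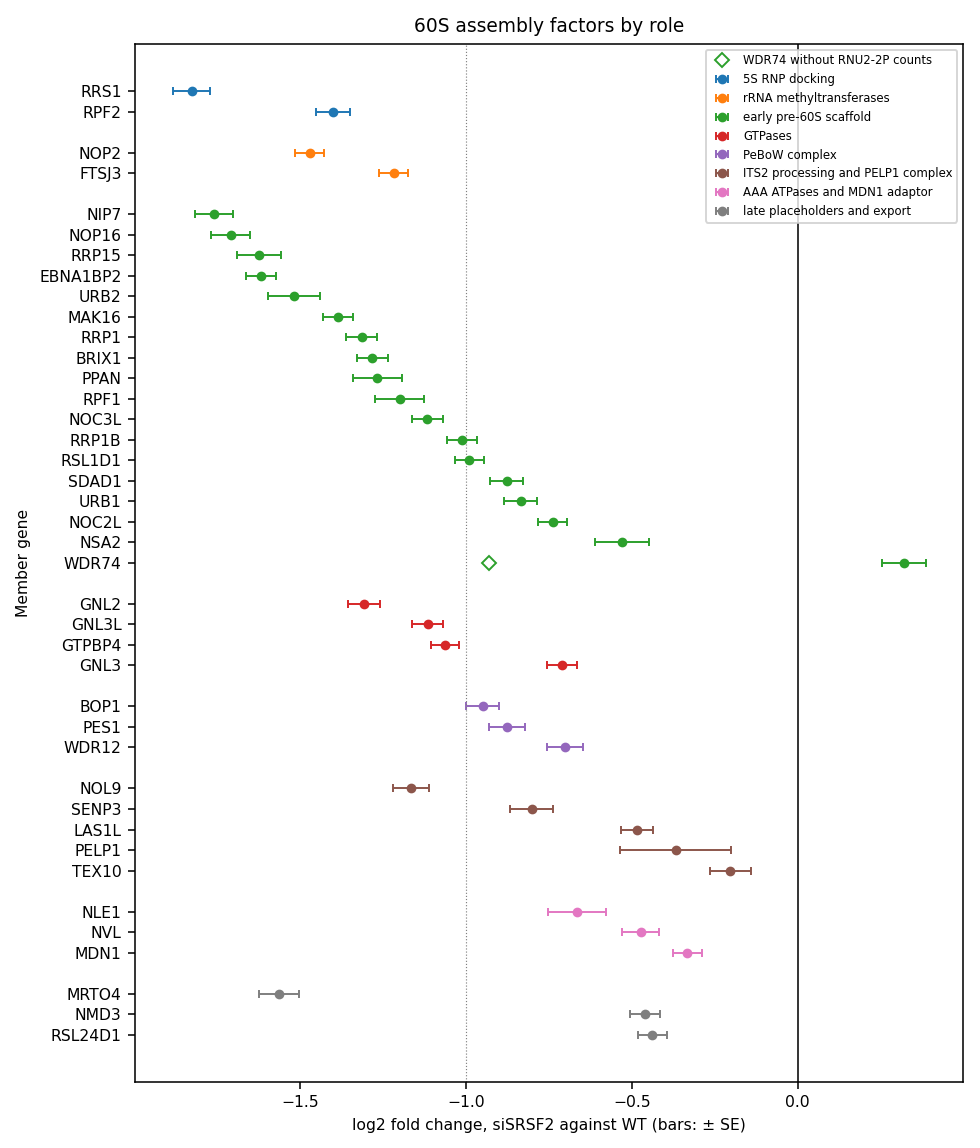
Log2 fold change of each member in siSRSF2 against WT cells (horizontal axis, points with SE bars), grouped and coloured by role in 60S assembly (vertical axis), with a dotted line at a 2-fold fall. The filled points run from -1.83 for RRS1 to 0.32 for WDR74, and the open diamond marks WDR74 at -0.93 after the RNU2-2P counts were taken away.

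Other genes of the pathway were listed separately from the members, and most were lower too. Of 35 further 60S factors 33 fell and 2 rose (median log2 fold change -0.94). LYAR fell from 170.2 ± 1.42 to 59.9 ± 1.92 CPM, CCDC86 from 121 ± 3.36 to 40.2 ± 0.811 CPM, SBDS, which acts in the final cytoplasmic steps, from 154 ± 1.02 to 55.6 ± 1.67 CPM, and the helicase gene DDX18 from 241 ± 4.87 to 102 ± 2.01 CPM. The 2 that rose, named after their values were seen, were NOP53 (log2 fold change 0.59) and EFL1 (0.22), the GTPase that works with SBDS. Of 56 small-subunit (40S) assembly factors 55 fell and none rose (median -1.01). RRP9 had a log2 fold change of -2.18, RRP12 of -1.57, LTV1 of -1.57 and UTP20 of -1.50. The remaining 40S gene, UTP23, did not pass (log2 fold change 0.10, edgeR adjusted p = 0.223).

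Genes for the proteins that stay in the finished large subunit went both ways. Of 46 genes for 60S ribosomal proteins, 15 fell, 8 rose and 23 did not pass, beside 29.0% of all genes lower and 30.1% higher, and 53.0% lower among genes at least as abundant as the least abundant member. None fell by over 2-fold, and the median log2 fold change was -0.03, beside 0.02 for all genes. With scaling by library totals alone 7 fell and 18 rose, with a median of 0.10, so the direction of this family depends on the scaling. RPL13A (0.67), RPL3 (0.47) and RPL12 (0.38) were higher and RPL36 (-0.52) was lower. Their summed level was 28823 ± 749 CPM in WT and 30223 ± 500.0 CPM in siSRSF2 cells, while that of the assembly members, as given above, went from 9859 to 5199 CPM. No test of the difference between these lists was made, and the values stand side by side.

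**Figure D4:**
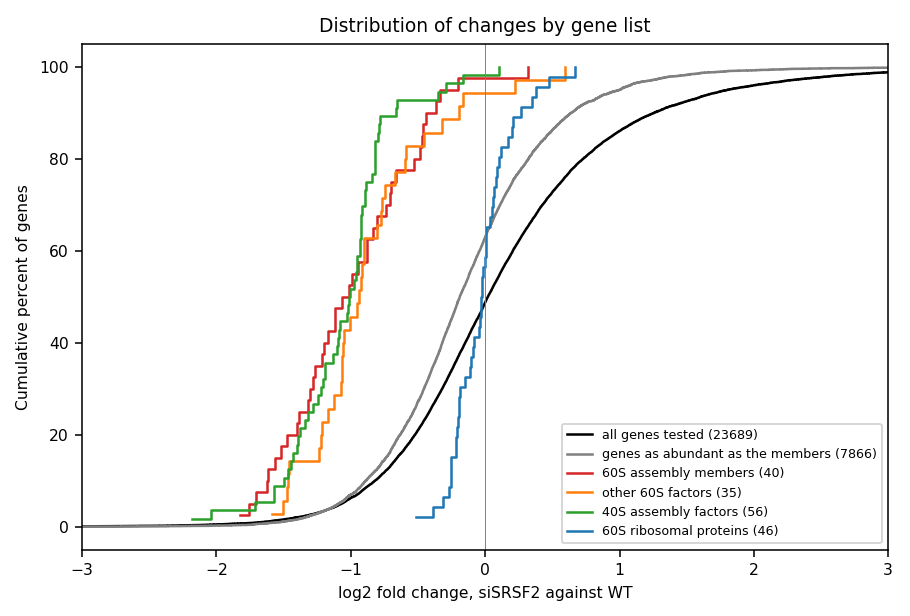
Cumulative percent of genes (vertical axis) against log2 fold change in siSRSF2 over WT cells (horizontal axis, shown from -3 to 3) for all genes tested, for genes at least as abundant as the least abundant member, and for 4 gene lists. The curves of the 60S members (median -1.04), further 60S factors (-0.94) and 40S factors (-1.01) lie together to the left, and that of the 60S ribosomal proteins (median -0.03) rises steeply near 0.

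Because the members moved together, their promoters were searched for short sequences, from 250 bases before to 50 after the RefSeq start (GRCh38.p14). Of the 40 members 33 had a promoter in the RefSeq table. The E-box CACGTG, a palindrome that MYC with MAX and several other factors can bind, was found in 11 of 33 (33.3%), against 7.43% of all 27305 promoters and 9.84% of the 11346 promoters of tested genes. CACGTG was found in 28.1% of 32 promoters of further 60S factors, in 44.7% of 47 promoters of 40S factors and in 5.41% of 37 promoters of 60S ribosomal proteins. CCGGAAG, a core of sites for ETS-family factors, read on either strand, was found in 15 of 33 (45.5%), against 10.7% of all promoters and 17.4% of those of tested genes. It was found in 43.8% of promoters of further 60S factors, 44.7% of 40S factors and 32.4% of 60S ribosomal proteins. Of the other sequences searched, GGGCGG was found in 60.6% of members and 66.7% of tested genes, TATAAA in 3.03% and 6.35%, and the palindromic CGCG element bound by BANP in 3.03% and 0.811%, each on either strand. CACGTG and CCGGAAG were both present in 2 members and both absent from 9. Motif shares were not counted among genes as abundant as the members, so the part of abundance in these differences was not tested. A match describes the letters only and shows no binding.

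The windows that follow show every E-box of the members, 30 bases each on the gene's strand with CACGTG in capitals, ordered from the largest fall to the smallest, so that position and flanks can be compared with the fold changes.
EBNA1BP2, chr1:43172790-43172819, minus strand: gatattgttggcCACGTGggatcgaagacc
MRTO4, chr1:19251807-19251836, plus strand: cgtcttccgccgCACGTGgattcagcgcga
NOP2, chr12:6568242-6568271, minus strand: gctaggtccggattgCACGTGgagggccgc
GNL2, chr1:37595917-37595946, minus strand: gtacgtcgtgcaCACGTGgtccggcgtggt
NOC3L, chr10:94362903-94362932, minus strand: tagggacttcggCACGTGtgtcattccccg
PES1, chr22:30591880-30591909, minus strand: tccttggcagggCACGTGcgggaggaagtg
SDAD1, chr4:75991156-75991185, minus strand: tacatgctaacaCACGTGaaaaaatttaca
NLE1, chr17:35142274-35142303, minus strand: ctctttctcctcCACGTGgggacgcaggat
PELP1, chr17:4704358-4704387, minus strand: gtccggacCACGTGtacctttaacatcaca
MDN1, upstream match, chr6:89819932-89819961, minus strand: tttctgtcccacCACGTGctgtgttcgcga
MDN1, downstream match, chr6:89819750-89819779, minus strand: cgtgtgctcaccCACGTGtggtgcccctct
TEX10, chr9:100352955-100352984, minus strand: gcgggctgcgatCACGTGagcacagcaggg

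Of these 12 matches 5 lay before the start. The earliest were in PELP1 (from base -242), EBNA1BP2 (-237) and SDAD1 (-228), and the closest before the start was in TEX10 (-30). In GNL2, NLE1, PES1, MRTO4, NOC3L, MDN1 and NOP2 the box began 4, 13, 14, 15, 20, 28 and 36 bases after it. Members with the E-box had a median log2 fold change of -0.88 (from -1.62 to -0.20) and those without it -0.95 (from -1.76 to 0.32, the latter being WDR74 as deposited), with no test of the difference. A fall of over 2-fold was seen in 5 of the 11 members with it and in 11 of the 22 without it.

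The ETS core is shown for the 4 most lowered members that hold it before the start and for WDR74, with the motif, or its reverse complement CTTCCGG, in capitals. In NOP16 the letters of both strands overlap, and 1 of the 2 matches is marked.
NIP7, chr16:69339566-69339595, plus strand: acgtcacttccCTTCCGGaccacaaggggc
NOP16, chr5:176388596-176388625, minus strand: gtgcacgccttCCGGAAGgagtttgttaca
BRIX1, chr5:34915595-34915624, plus strand: cgccaccgagaCCGGAAGgaggcggcacag
RPF1, chr1:84479192-84479221, plus strand: actttgcgaccCCGGAAGtaaaaggttaag
WDR74, chr11:62839587-62839616, minus strand: cacacgctgcgCCGGAAGtgtgaactgtct

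Members with CCGGAAG had a median log2 fold change of -1.12 and those without it -0.86, with no test of the difference. A fall of over 2-fold was seen in 9 of the 15 members with it and in 16 of all 33 members with a promoter. Over all tested genes with a promoter in the table the median was -0.02, for the 1117 with CACGTG -0.08 and for the 1979 with CCGGAAG -0.19. Genes at or above the mean level of the least abundant member, whatever their promoter, also had a median of -0.19.

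How reads were shared with neighbours bears on some of the levels. Exon positions were shared with another entry by 25 of the 40 members, and 12 shared over 10% of their exon length with 1 other entry. NSA2 shared 51.2% with FAM169A and PPAN 56% with PPAN-P2RY11. MAK16 shared 19.2% with TTI2, EBNA1BP2 18.8% with CFAP57 and NOP16 12% with ARL10, all on the opposite strand. The log2 fold changes of these neighbours were -0.45, -1.27, -1.23, -1.43 and -1.73, against -0.53, -1.27, -1.39, -1.62 and -1.71 for the members they overlap, and which reads came from the shared positions was not tested. The counts of these neighbours were below the members', to differing degrees. FAM169A had 428 to 442 in WT libraries where NSA2 had 8980 to 9905, and CFAP57 had 931 to 999 where EBNA1BP2 had 18903 to 20060. ARL10 had 2196 to 2328 where NOP16 had 5421 to 5803, and TTI2 had 2432 to 2778 where MAK16 had 7960 to 8494. PPAN-P2RY11 had 7171 to 7914 where PPAN had 7321 to 7995. SENP3-EIF4A1, in contrast, had 25072 to 26701 where SENP3 had 2380 to 2501. FNDC8, which overlaps 12.6% of NLE1, did not pass (log2 fold change 0.03). Pseudogene entries existed for 10 members, and 26 of the 27 such entries stayed at 193 counts or fewer in each library.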

How the data were processed

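Per the labels' protocols, total RNA went into libraries made with the SMARTER mRNA-Seq kit. The 1 table of 56303 entries that the authors deposited holds unnormalised read counts and exon lengths. HISAT2 2.0.5, featureCounts 1.5.0-p3 and the build mm10 are named, per the submitters' processing notes, but the table holds human genes, and 39 of 40 members had the same start and end in GENCODE 29 (GRCh38). A strand setting for the counting is named in neither the labels nor these notes. Even numbers made up 80.2% of counts from 1 to 10. The analysis of these counts used edgeR 4.0.16 under R 4.3.3: filterByExpr (minimum count 10; 23689 genes, 99.9% of counts), TMM, robust quasi-likelihood fit on group alone, Benjamini-Hochberg threshold 0.05. SEs came from the fold change and its F statistic. Common biological variation was 6.27%. Replicate pairs gave a chi-square of 3.83 to 8.75 per gene, above the 1 that counting noise alone would give, a reference that double counting of read pairs would raise. Alternatives used DESeq2 1.42.0 and limma 3.58.1. The script was tested on simulated counts. Floors cover counting error only.

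The members, roles, lists, motifs and pairs were chosen with earlier results of these data known. Genes named are all members, SRSF2, up to 4 genes of smallest p in each other pathway list, and genes sharing exons with a member. Marker genes come from the marker lists, and UTP23, NOP53, EFL1, RPLP0, RPL24, SDAD1P1 and BNIP3L were named after their values were seen. Of the list entries, 3 were found by an older symbol.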

Additional observations from a re-analysis of the deposited data

How the results depend on the processing

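The counts of lower members ranged from 37 to 39 of 40 over 18 alternatives, and their median log2 fold change from -1.11 to -0.91. The median was -0.91 with scaling by library totals alone, which moved the median of all genes from 0.02 to 0.15, -1.11 with no filter and -0.99 when genes under a mean CPM of 1 were dropped. The number lower by over 2-fold ranged from 17, with library totals, to 23. The count of higher members, which is WDR74, became 0 when tested against 1.2-fold and 0 when the RNU2-2P counts were taken away, a setting chosen after seeing the data in which its log2 fold change was -0.93. Leaving out 1 library at a time gave medians from -1.06 to -1.02. Replicate numbers were shared between groups, but deviations of same-numbered libraries correlated at 0.0133, -0.0472 and -0.0457, so the numbers were not treated as pairs. With the replicate number as a block, 6770 genes were lower and 6927 higher in place of 6862 and 7129, and 39 members were lower. PELP1 also passed with limma voom (adjusted p = 0.00111), a non-robust fit (edgeR adjusted p = 0.00161) and the block (7.47e-08). The thinned libraries and the removal of entries named RNU or SNOR were added after seeing the data. The lowest member count was 230, and the siSRSF2 libraries were the shallower ones.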

Other observations

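SDAD1P1, a pseudogene entry of the member SDAD1 on chromosome 8 (26379259 to 26382953, minus strand, GRCh38), stood apart from the other pseudogenes. It had 38, 44 and 39 counts in WT libraries and 256, 390 and 355 in siSRSF2 libraries, which is 0.861 ± 0.0893 and 9.93 ± 0.444 CPM. The log2 fold change was 3.53 with an SE of 0.15 (edgeR adjusted p = 6.83e-17). SDAD1 itself fell (log2 fold change -0.88), so the 2 entries moved in opposite directions. The start of SDAD1P1, read on its own strand, shares 56 bases with exons of BNIP3L on the opposite strand. BNIP3L, a mitophagy receptor gene, was higher as well (log2 fold change 1.89, edgeR adjusted p = 1.68e-20). The part of BNIP3L reads in the SDAD1P1 count was not tested. SDAD1P1 was singled out after its values were seen.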
